A study of Homo sapiens with 15 samples.

Results

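The genes examined here are the p16-RB pathway and its neighbors in chromosome band 9p21, namely CDKN2A, CDKN2B, MTAP, CDK4, CDK6, CCND1, RB1, CDK2, CCNE1 and CDKN1B. They were chosen by gene name: all probes that carry one of these 10 names were taken, which gave 19 of the 41000 probes and 10 of the 30484 gene names on the array. The data are 15 dual-color whole genome oligonucleotide arrays of A549, an established line of human lung adenocarcinoma cells. They form 5 groups of 3 arrays, one group for each of the miRNAs miR-574-3p, miR-181d, miR-629*, miR-565 and miR-766. In every group, cells transfected with the synthetic miRNA (Cy5, called overexpressing cells below) were compared on the same array with cells transfected with an LNA antagomir of that miRNA (Cy3, called antagomir cells). The labels give 20 nM of oligonucleotide and 24 h between transfection and RNA extraction in all groups. No dye was swapped and no untransfected cells were hybridized, so that within a miRNA dye and treatment cannot be told apart, and a ratio has no untreated baseline. The labels number the arrays of a miRNA but do not say whether they are separate transfections, so p-values measure only the spread between these arrays.

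In the textbook pathway, p16 (from CDKN2A) and p15 (from CDKN2B) bind CDK4 and CDK6 and keep them from pairing with cyclin D1 (CCND1). CDK4 and CDK6 with cyclin D1, and then CDK2 with cyclin E1 (CCNE1), phosphorylate the retinoblastoma protein (RB1), which releases E2F factors and lets cells enter S phase. p27 (CDKN1B) restrains the cyclin E complexes. MTAP, an enzyme of methionine salvage, lies beside CDKN2A and is often lost together with it in tumors. A549 cells are described in the study as carrying a homozygous deletion of CDKN2A.

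The transfected miRNAs differ in their seed, the bases 2 to 8 by which a miRNA pairs with its targets. The mature sequences below were taken from RefSeq (GRCh38.p14), which held 3 of the 5, and are shown with the seed in capitals because these are the agents compared.
miR-574-3p: cACGCUCAugcacacacccaca
miR-181d: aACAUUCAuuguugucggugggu
miR-629*: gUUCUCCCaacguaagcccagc
The 3 seeds differ from each other. miR-565 and miR-766 are named only.

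The labelled cell type was checked by its markers. The 6 epithelial genes checked (KRT7, KRT8, KRT18, KRT19, EPCAM and CDH1) and 4 genes abundant in this line (AKR1B10, AKR1C1, ALDH1A1 and NQO1) were well above background in all 30 readings, that is, in both channels of all 15 arrays. The endothelial and fibroblast markers (PECAM1, CDH5, COL3A1 and PDGFRB) were well above background in none. The hematopoietic marker PTPRC was well above background in none, and CD3E in all 30, at a median of 39.8 in the antagomir cells. Replicate 1 of miR-565 stood apart from the other arrays: the SD of its log2 ratio over all probes was 0.942, against 0.29 to 0.532 on the other 14 arrays, and its median log2 ratio was 0.138. Results are therefore also given without it. The arrays lay on 4 slides, and the 3 arrays of miR-766 had a slide to themselves, so that this slide and this miRNA cannot be told apart.

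The first question was whether the 9p21 genes gave any signal in these cells. Of the 7 probes of CDKN2A, CDKN2B and MTAP, 2 were well above background in all 30 readings, where 64.2% of all probes on the array were, and 4 were well above background in none, where 20% of all probes were. Each of the 3 genes had at least 1 probe that was well above background in no reading (called a probe without signal below), and CDKN2A and MTAP each had 1 that was in all, so that the 9p21 genes were not uniformly without signal. The count of 4 depends on the detection rule. By the flag for a positive and significant signal, 2 of the 7 were detected in no reading (2.41% of all probes), and by a signal above the 95th percentile of the negative control spots of the same array and channel, 0 were (0.856% of all probes). Some negative control spots exceed their own 95th percentile by definition, so a probe at background can pass this rule in some of 30 readings. CDKN2A A_23_P43484 and MTAP A_24_P297888 and A_24_P196519 each passed it in 2, and CDKN2B A_24_P360674 in 5. The count of 0 therefore does not show signal at these 4 probes. The 2 probes detected in all 30 readings were so by each of these rules. Positions are those in the files (NCBI36).

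The 2 probes of CDKN2A gave opposite readings. Both are annotated to the same transcript and lie on the minus strand, A_23_P43484 at chr9:21957780-21957839 and A_23_P43490 at chr9:21958039-21958098, with 199 bases between them. A_23_P43484, which is spotted 10 times on each array, had a background-subtracted signal between -2.25 and 0.0288 in the antagomir cells (median -1.58) and between -1.44 and 2.07 in the overexpressing cells (median -0.419). On the same arrays, the 153 negative control spots had a 95th percentile of between 0.345 and 1.95. In none of the 30 readings was this probe well above background, and in 2 it exceeded the 95th percentile of the negative controls. A_23_P43490, with 1 spot per array, had a signal between 357 and 486 in the antagomir cells (median 418) and between 269 and 945 in the overexpressing cells (median 711), and it was well above background in all 30 readings. The lowest value in the overexpressing cells was that of replicate 1 of miR-565. The longest stretch that A_23_P43490 shares with another probe of the array was 12 bases, and no genome was at hand to look for other matches.

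The 2 probes of CDKN2B read low, and one of them lay above the negative controls in the overexpressing cells. A_24_P360674 (chr9:21994945-21995004) was well above background in none of the 30 readings, with medians of 0.462 in the antagomir cells and -0.48 in the overexpressing cells, and it exceeded the 95th percentile of the negative controls in 5. A_23_P216812 (chr9:21998979-21999038) was well above background in 2 readings, both of overexpressing cells, at 12.2 on replicate 1 of miR-181d and 10.2 on replicate 1 of miR-766. Its antagomir readings ranged from -3.36 to 3.18 with none well above background. In the overexpressing cells the other 13 arrays read 2.63 to 8.88. This probe exceeded the 95th percentile of the negative controls on all 15 arrays in the overexpressing cells and on 5 in the antagomir cells, and its signal was positive and significant on 15 and on 3. Dye and treatment cannot be told apart in this contrast either. Neither probe of CDKN2B passed the filter, and no ratio is given for this gene.

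The 3 probes of MTAP differed along the gene. The probe with signal covers an exon junction nearer the start of the gene (A_24_P51118, from chr9:21792766 to 21805476, plus strand), and the next one covers a junction downstream of it (A_24_P297888, from chr9:21827969 to 21844648). Their sequences are shown because they mark where along the gene the readings changed. Each has a reading frame without a stop.
MTAP A_24_P51118: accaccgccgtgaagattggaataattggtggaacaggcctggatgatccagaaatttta
MTAP A_24_P297888: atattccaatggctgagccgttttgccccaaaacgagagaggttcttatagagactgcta
The upstream probe read 308 to 449 in the antagomir cells (median 368) and 195 to 571 in the overexpressing cells (median 460), and was well above background in all 30 readings. The downstream probe read -3.13 to 1.5 and -2.51 to 1.28 and was well above background in none. The third probe (A_24_P196519, chr9:21852980-21853039), further downstream, was likewise well above background in none, with medians of -1.54 and -1.89. The GC content was 45% for both junction probes. The upstream and downstream probes lie 22.5 kb apart.

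**Figure D1:**
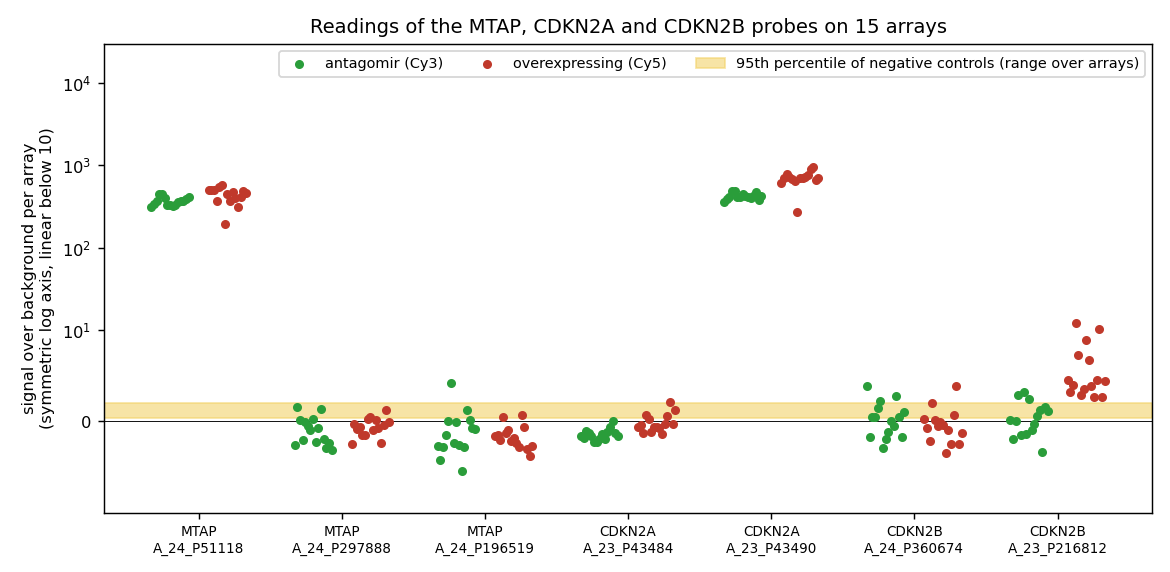
Background-subtracted signal of each MTAP, CDKN2A and CDKN2B probe (x axis, in chromosomal order) on the 15 arrays, with antagomir cells in green and overexpressing cells in red, on a symmetric log axis that is linear below 10. The yellow band is the range of the 95th percentile of the negative control spots, 0.345 to 1.95. One MTAP probe and one CDKN2A probe sit at 195 to 945, and the others read at most 12.2, with the red points of the CDKN2B probe A_23_P216812 all above the band.

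The probes around these genes were read in order along the chromosome. Within 5000000 bases of CDKN2A lay 72 probes, of which 41 were well above background in all 30 readings and 23 in none. Of all probes on the array, 64.2% were in all 30 readings and 20% in none. From the second MTAP probe to the second CDKN2B probe, a span of 171 kb, there were 8 probes, of which 1 (CDKN2A A_23_P43490) was well above background in all readings and 5 in none. The remaining 2 were the CDKN2B probe A_23_P216812 and a probe of C9orf53 (A_23_P307502, chr9:21957537-21957596), which was well above background in 21 readings. On the side of the telomere, the nearest named gene with signal beyond MTAP was IFNE1 (now IFNE), an interferon gene, at 30 of 30 readings. On the side of the centromere, an unnamed probe 3.4 kb beyond CDKN2B (A_24_P41593, chr9:22002440-22002499) read in all 30, as did a second unnamed probe (A_32_P152696, chr9:22145709-22145768). The nearest named gene with signal on that side was DMRTA1, 443 kb beyond CDKN2B, in 30 of 30 readings.

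**Figure D2:**
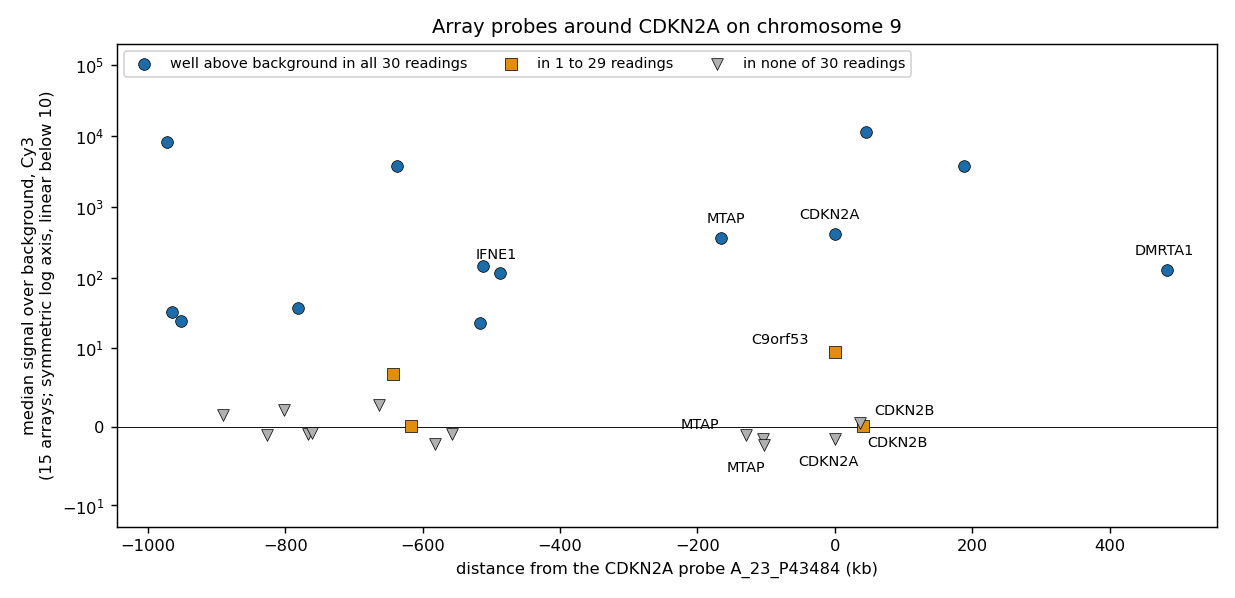
Median background-subtracted signal of the antagomir cells over 15 arrays (y axis, symmetric log, linear below 10) for each probe against its distance in kb from the CDKN2A probe A_23_P43484. Blue circles were well above background in all 30 readings, orange squares in 1 to 29 and gray triangles in none. Between the MTAP probe with signal and the unnamed probe beyond CDKN2B, 1 blue circle remains, the CDKN2A probe A_23_P43490.

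The 4 probes without signal were by definition not well above background in either channel of any array, so comparing them by miRNA adds nothing here. RB1, CDK4, CDK6, CCND1, CDK2, CCNE1 and CDKN1B lie on other chromosomes. Each of their 12 probes was well above background in all 30 readings, where 64.2% of all probes on the array were.

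The second question was how the members differed between overexpressing and antagomir cells. The log2 ratio of the processed signals (overexpressing over antagomir) was tested with limma over 31326 probes, those of the 31353 passing a filter on dim signals that could be fitted, and a member was called at a Benjamini-Hochberg adjusted p under 0.05 for its brightest probe. The members tested were 9, all but CDKN2B. In the miR-574-3p ratio, 2 of the 9 were called, CDKN1B higher and CCND1 lower, where 5.53% of all 22988 genes were called. In the miR-181d ratio the same 2 were called, with 6.42% of all genes. In the miR-565 ratio 1 was called, CDKN1B (13.9% of all genes). In the miR-629* ratio 2 were called, CDKN1B and CDKN2A, both higher (10.5% of all genes). In the miR-766 ratio none was called (2.4% of all genes). There 6 of the 9 had an unadjusted p under 0.05, as had 3931 of the 22988 genes (limma). The median log2 ratio of the 9 members was between -0.16 (miR-565) and 0.08 (miR-181d), against 0.01 to 0.04 for all genes tested. No member reached the ratio that the methods of the study name for suppressed mRNA, under 0.5 with a p up to 0.001 and a signal of 20 or more in the antagomir cells. With the unadjusted p of limma, 0.513% of the genes did for at least 1 miRNA.

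Without replicate 1 of miR-565, more members were called and so were more genes overall. Among the members the counts became 4 for miR-574-3p (23.2% of all genes), 5 for miR-181d (28.1%), 2 for miR-565 (16.5%), 3 for miR-629* (35.7%) and 5 for miR-766 (19.5%). The counts of 2 also fell when an array of the same miRNA was left out, to 0 or 1 for miR-574-3p (1.08% to 2.34% of all genes), 0 for miR-181d (0.618% to 1.88%) and 1 for miR-629* (1.26% to 3.15%). For miR-181d the count also became 1 without any 1 of 6 arrays of other miRNAs (4.48% to 5.17% of all genes), which are named with CCND1. In the miR-565 ratio 4 members were called without its replicate 2 (27.1% of all genes). Added were CDK6 (-0.70, adjusted p = 0.044), RB1 (-0.37, adjusted p = 0.042) and MTAP (-0.52, adjusted p = 0.044, limma). That fit keeps replicate 1 of miR-565, which read -1.45 for CDK6, -0.72 for RB1 and -0.69 for MTAP. Without replicate 1 instead, the fitted values were 0.07, 0.007 and -0.23. In the miR-766 ratio 1 was called without its replicate 3 (CCND1, -0.42, limma, with 1% of all genes).

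The brightest CDKN1B probe, which reads the mRNA of the inhibitor p27, was higher in the overexpressing cells on all 15 arrays. Its log2 ratios (A_24_P81841, 10 spots per array) were 0.21, 0.30 and 0.10 for miR-574-3p, 0.28, 0.20 and 0.24 for miR-181d, and 0.43, 0.35 and 0.42 for miR-565. They were 0.30, 0.37 and 0.42 for miR-629* and 0.21, 0.18 and 0.14 for miR-766. A positive ratio on all 15 arrays was found for 5.59% of the probes that passed the filter. The fitted log2 ratio was 0.20 ± 0.05 (SE) for miR-574-3p (adjusted p = 0.021), 0.24 for miR-181d (adjusted p = 0.011), 0.40 for miR-565 (adjusted p = 0.0004) and 0.36 for miR-629* (adjusted p = 0.0014) in limma. For miR-766 it was 0.18 (adjusted p = 0.063, limma), and 0.18 with an adjusted p of 0.0058 without replicate 1 of miR-565. The call for miR-574-3p was lost without its replicate 1 or 2 (adjusted p = 0.15 and 0.27, limma), and that for miR-181d without any 1 of its arrays (adjusted p between 0.054 and 0.11, limma). The call for miR-565 was lost when its 3 arrays were fitted alone (adjusted p = 0.62, limma). The mean processed signal ranged over the groups from 995 to 1280 in the antagomir cells and from 1271 to 1634 in the overexpressing cells.

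The other CDKN1B probe did not follow. A_23_P204696 lies in the coding part of the gene (chr12, plus strand, with the sequence below) and read 231 to 416 in the antagomir cells before dye normalization.
CDKN1B A_23_P204696: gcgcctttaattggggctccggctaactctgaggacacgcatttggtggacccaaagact
Its log2 ratio was negative on 13 of the 15 arrays, from -0.86 to 0.48, and none of its 5 ratios was called. It was called lower without replicate 1 of miR-565 for miR-181d (-0.41, adjusted p = 0.021) and miR-766 (-0.42, adjusted p = 0.027, limma). The mean over the 5 miRNAs was -0.21 (adjusted p = 0.020, limma), opposite to the 0.28 of the brightest probe. The direction given for CDKN1B is thus that of one of its 2 probes.

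CCND1, the gene of cyclin D1, was lower in the overexpressing cells on all 15 arrays at its brightest probe. The log2 ratios of A_23_P202837 (10 spots per array) were -0.33, -0.45 and -0.39 for miR-574-3p, -0.32, -0.35 and -0.30 for miR-181d, and -0.06, -0.33 and -0.38 for miR-565. They were -0.08, -0.31 and -0.19 for miR-629* and -0.26, -0.57 and -0.05 for miR-766. A negative ratio on all 15 arrays was found for 2.43% of the probes that passed the filter. The fitted value was -0.39 ± 0.08 (SE) for miR-574-3p (adjusted p = 0.016) and -0.32 for miR-181d (adjusted p = 0.039), and it was not called for miR-565 (-0.26, adjusted p = 0.059), miR-766 (-0.30, adjusted p = 0.089) or miR-629* (-0.19, adjusted p = 0.15, all limma). It was also called, without replicate 1 of miR-565, for miR-565 (-0.36, adjusted p = 0.017) and miR-766 (adjusted p = 0.013, limma). The call for miR-574-3p was lost without any 1 of its own arrays (adjusted p between 0.083 and 0.16, limma). That for miR-181d was lost without any 1 of 9 arrays, namely its own 3, the 3 of miR-574-3p, replicates 2 and 3 of miR-629* and replicate 1 of miR-766 (adjusted p between 0.053 and 0.21, limma). The signal was 2264 ± 207 in the antagomir cells of miR-574-3p and 1723 ± 90.1 in the overexpressing cells (SD, n = 3).

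The other CCND1 probes gave different values. A_24_P193011, in the coding part of the gene (chr11, plus strand), was negative on 13 of 15 arrays and was called for miR-629* (-0.30, adjusted p = 0.016, limma) but for no other miRNA. That call was lost without replicate 1 or 2 of miR-629* (adjusted p = 0.12 and 0.077, limma), and miR-181d was called as well without replicate 1 of miR-565 (adjusted p = 0.013, limma).
CCND1 A_24_P193011: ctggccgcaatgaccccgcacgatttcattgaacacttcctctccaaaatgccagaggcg
A_24_P124550 was higher with miR-574-3p, at 0.26, 0.26 and 0.38 on the 3 arrays (fitted 0.30, adjusted p = 0.039, limma). It was lower with miR-181d, at -0.50, -0.21 and -0.15 (fitted -0.29, adjusted p = 0.042, limma). Both calls were near the threshold: leaving out 1 array ended the first for 10 of the 15 arrays (adjusted p up to 0.20) and the second for 12 (adjusted p up to 0.39, limma), in either case with each array of the miRNA itself. On the miR-574-3p arrays, this probe and the brightest probe thus had opposite signs, and their readings do not overlap.

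**Figure D3:**
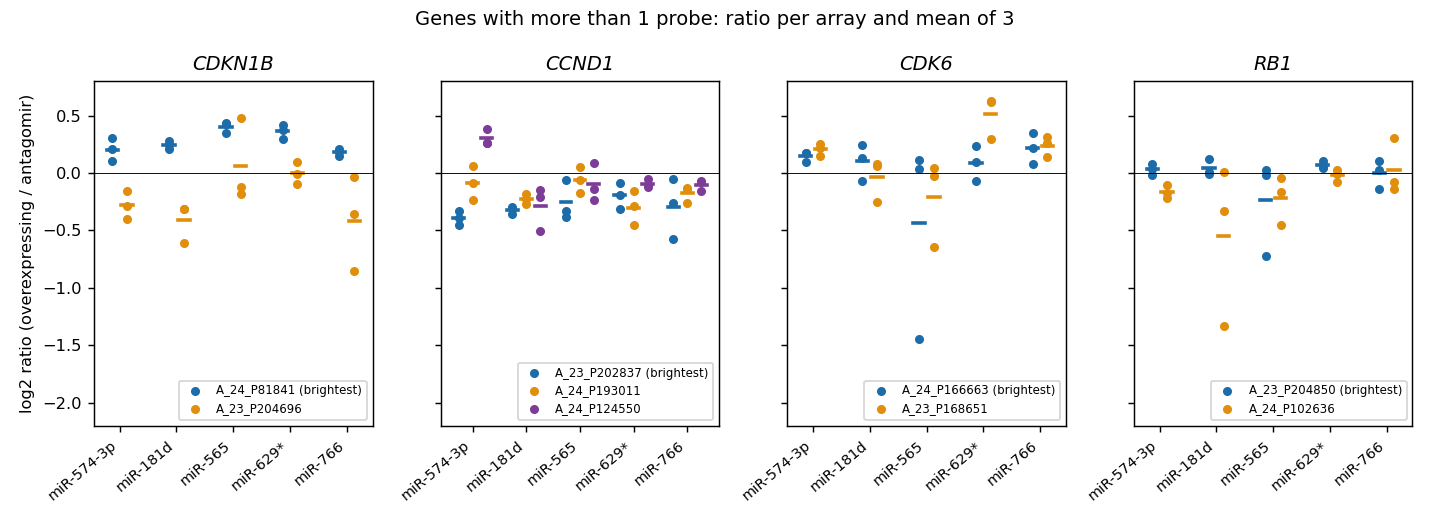
Log2 ratio (y axis) on each array for the genes CDKN1B, CCND1, CDK6 and RB1, with 1 color per probe and a bar at the mean of 3 arrays, by miRNA (x axis). The blue CDKN1B probe is positive on 15 of 15 arrays and the orange one negative on 13, and for CCND1 the purple probe A_24_P124550 is positive on the 3 miR-574-3p arrays.

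The kinase genes CDK4 and CDK2 and the gene of cyclin E1 were not called in any of the 5 ratios. CDK4 (A_23_P24997) had a log2 ratio between -0.16 and 0.13 on the 15 arrays, positive on 7. Of the 15 arrays, leaving out replicate 1 of miR-565 and no other brought calls, lower for miR-181d (-0.12, adjusted p = 0.0085) and higher for miR-766 (0.10, adjusted p = 0.029, limma). Over the 5 ratios, its 95% intervals of limma reached from 0.866-fold (miR-181d) to 1.14-fold (miR-766). CCNE1 (A_23_P209200) ranged from -0.05 to 0.21, positive on 14 arrays, with intervals between 0.934-fold and 1.14-fold. Leaving out the same array brought a call for miR-181d (0.10, adjusted p = 0.028, limma). CDK2 (A_23_P98898) was negative on 12 of 15 arrays. The 3 arrays of miR-574-3p read -0.43, -0.35 and -0.35, but the fitted -0.38 was not called (adjusted p = 0.10, and 0.016 without replicate 1 of miR-565, limma).

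CDK6 had 2 probes. The brightest, A_24_P166663, read -1.45 on replicate 1 of miR-565 and between -0.07 and 0.35 on the other 14 arrays, and it was not called in any ratio. Without that array it was called for miR-766 (0.22, adjusted p = 0.039, limma), as was the dimmer one (0.24, adjusted p = 0.045, limma). The dimmer one, A_23_P168651, spans an exon junction on the minus strand of chromosome 7.
CDK6 A_23_P168651: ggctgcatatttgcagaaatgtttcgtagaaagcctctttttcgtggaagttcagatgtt
Its log2 ratios with miR-629* were 0.30, 0.62 and 0.63 (fitted 0.51 ± 0.12 SE, adjusted p = 0.019, limma). The call was lost without replicate 2 or 3 of miR-629* (adjusted p = 0.11 and 0.15) and with the slide as a block (0.25, adjusted p = 0.23, limma). This was the largest called ratio of any member probe, and the brightest probe read 0.24, 0.10 and -0.07 on the same arrays.

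RB1 was not called. Its brightest probe (A_23_P204850, 10 spots per array) read -0.72 on replicate 1 of miR-565 and between -0.14 and 0.12 on the other 14 arrays. The second probe, A_24_P102636, read -1.33 on replicate 1 of miR-181d and between -0.45 and 0.30 elsewhere. It was called lower for miR-181d without replicate 1 of miR-565 (-0.55, adjusted p = 0.042, limma).

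Of the 9p21 members that could be tested, CDKN2A A_23_P43490 was positive on 14 of 15 arrays. With miR-629* it read 0.28, 0.44 and 0.51 (fitted 0.41 ± 0.11 SE, adjusted p = 0.033, limma), and with miR-574-3p 0.27, 0.33 and 0.33 (fitted 0.31, adjusted p = 0.13, limma). The call for miR-629* was lost without any 1 of its arrays (adjusted p between 0.074 and 0.22) and with the slide as a block (0.15, adjusted p = 0.26, limma). The array below 0 was replicate 1 of miR-565, at -0.59. Without that array this probe was also called for miR-574-3p (adjusted p = 0.0007), miR-181d (adjusted p = 0.041) and miR-766 (adjusted p = 0.0018) in limma. MTAP A_24_P51118 was negative on 11 of 15 arrays, from -0.76 to 0.18, and was not called in any of the 5 ratios, but was called for miR-629* without replicate 1 of miR-565 (-0.36, adjusted p = 0.0497, limma). These 2 values belong to the one probe of each gene with signal.

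**Figure D4:**
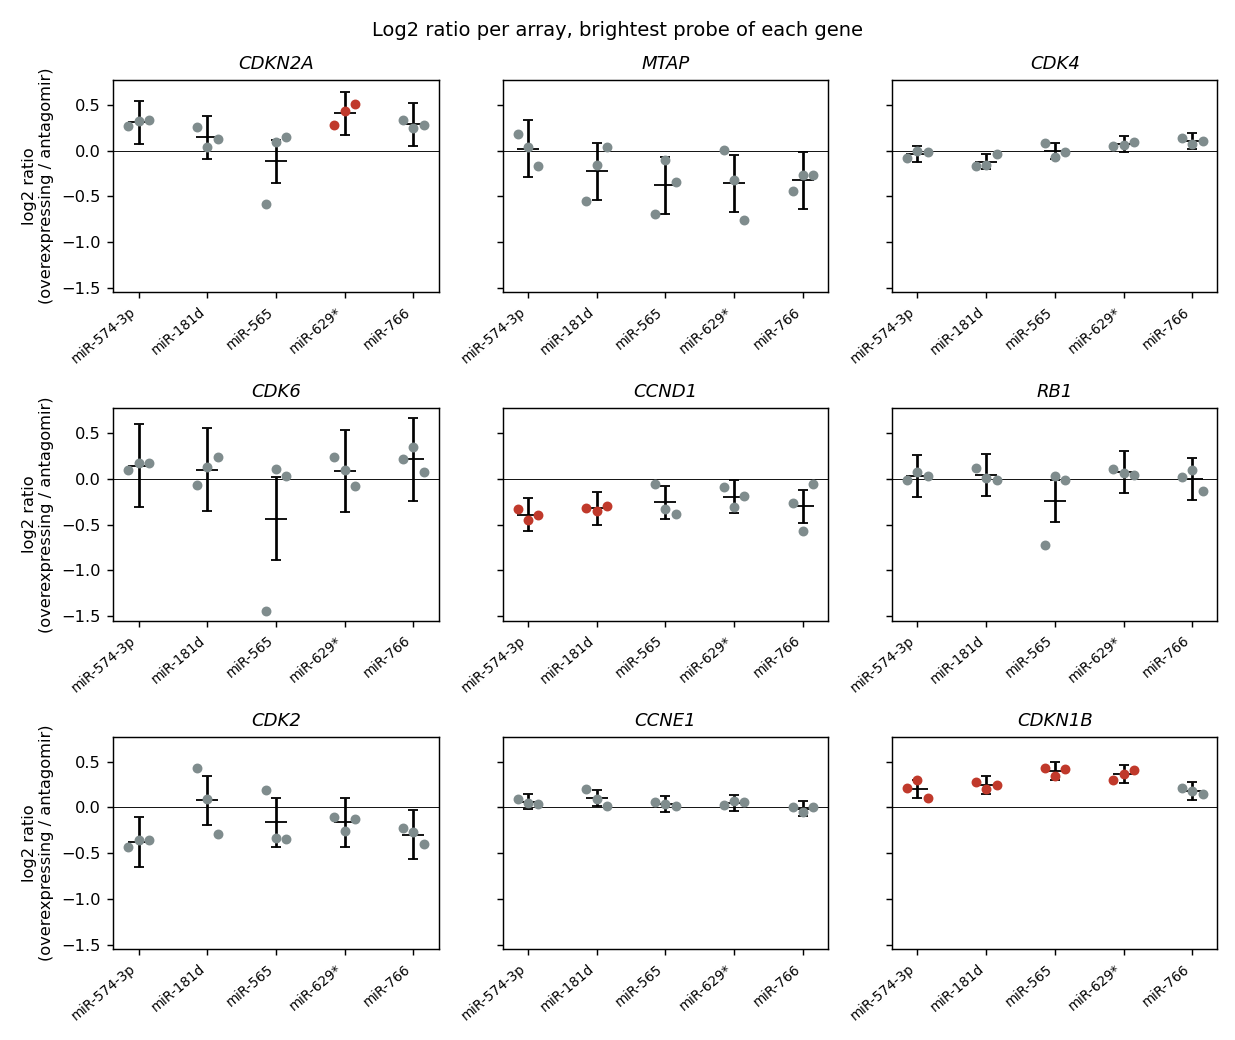
Log2 ratio of the overexpressing to the antagomir cells (y axis) for the brightest probe of each of the 9 members tested, with 1 point per array, by miRNA (x axis). Bars are the fitted mean with its 95% interval in limma, and red points mark ratios with an adjusted p under 0.05. CDKN1B lies above 0 and CCND1 below 0 on all 15 arrays.

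Averaged over the 5 miRNAs, 6 of the 9 members were called, where 41.6% of all genes were. CDKN1B (0.28, adjusted p = 1.4e-06), CDKN2A (0.21, adjusted p = 0.0049) and CCNE1 (0.05, adjusted p = 0.043) were higher in Cy5. CCND1 (-0.29, adjusted p = 7.4e-05), MTAP (-0.25, adjusted p = 0.0074) and CDK2 (-0.18, adjusted p = 0.018) were lower in Cy5 (all limma). CDK4, CDK6 and RB1 were not called by their brightest probes. The dimmer CDK6 probe was (0.14, adjusted p = 0.047, limma), but not without any 1 of 12 arrays (adjusted p up to 0.094, limma). The call of CCNE1 was lost without any 1 of 12 arrays (adjusted p up to 0.091, limma). Without replicate 1 of miR-565, the brightest CDK6 probe was called too (0.12, adjusted p = 0.0042, limma). Since every array carries the same dye orientation, the mean ratio may be that of treatment or of dye, which cannot be told apart.

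A dye effect shared by all arrays cancels when the ratio of one miRNA is set against the mean of the other 4, and this was the third question. The 5 differences share arrays, so they are not independent of each other. No member was called by its brightest probe for any of the 5 miRNAs, where 1.27% of all genes were for miR-574-3p, 0.113% for miR-565, 0.0522% for miR-629*, 0.0087% for miR-766 and 0% for miR-181d. At an unadjusted p under 0.05 in limma, 4 of the 9 members differed for miR-565, where 4003 of all 22988 genes did. For miR-181d 2 members differed (1551 genes) and for miR-766 2 (603 genes). None differed for miR-574-3p (2573 genes) or miR-629* (1015 genes). Without replicate 1 of miR-565, the 4 members of the miR-565 difference had an unadjusted p of 0.47 (CDK6), 0.61 (RB1), 0.021 (CDKN2A) and 0.014 (CDKN1B, limma). For CDKN1B the 5 differences ran from -0.12 to 0.16, and for CCND1 from -0.12 to 0.12. Without replicate 1 of miR-565 no member was called either.

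With the slide as a block, 4 members were called in the difference of miR-181d, 3 in that of miR-565 and 2 in that of miR-574-3p, where 52.9%, 15.9% and 27.3% of all genes were called (limma). Slide 1 holds the 3 arrays of miR-181d and of the other miRNAs just replicate 1 of miR-565. Within it, the brightest CDK6 probe differed by 1.55 (0.10 against -1.45) and RB1 by 0.76 (0.04 against -0.72). On slide 2, which holds 2 arrays each of miR-565 and miR-574-3p, miR-565 differed from miR-574-3p by -0.06 and -0.02 at these probes. On slide 3, miR-574-3p (1 array) differed from miR-629* (3 arrays) by 0.08 and -0.04. The members called with the slide block were CDK6, RB1, CDKN2A and, for miR-181d alone, CDK4.

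Among all 14 member probes tested, 1 differed between miRNAs. CCND1 A_24_P124550 was higher in the miR-574-3p ratio than in the mean of the other 4, by 0.45 ± 0.09 (SE, adjusted p = 0.022, limma), where 1.23% of all probes were called. The processed signals of the antagomir cells were 214, 205 and 203 with miR-574-3p, against 213 to 434 on the other 12 arrays. Those of the overexpressing cells were 256, 245 and 264, against 195 to 462. When each dye was compared across arrays, after quantile normalization within the dye, the antagomir cells of miR-574-3p were lower by 0.76 on the log2 scale (adjusted p = 0.00014, limma). The overexpressing cells read -0.32 on that scale, in the same direction (unadjusted p = 0.0065), and were not called (adjusted p = 0.98, limma). In the same comparison the CCND1 probe A_24_P193011 was lower in the antagomir cells of miR-574-3p (-0.28, adjusted p = 0.033, limma). The dimmer CDK6 probe was lower in those of miR-629* (-0.41, adjusted p = 0.0056, limma), and CDK4 was higher in those of miR-181d (0.13, adjusted p = 0.049, limma). No other member probe was called in either channel. Within slide 2 the ratio differed by 0.45 between miR-574-3p and miR-565 (2 arrays each), and within slide 3 by 0.47 between miR-574-3p and miR-629*. The call was lost when any 1 of the 3 miR-574-3p arrays was left out (adjusted p between 0.12 and 0.18, limma).

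The wider pathway was described by a list of 45 further genes, of which 44 were tested and CCND2 was not. The list holds other INK4 and CIP/KIP inhibitors, cyclins, pocket proteins, E2F and DP factors, activators of CDKs, ubiquitin ligase subunits that turn over p27 and cyclin E, and E2F target genes. In the ratios, 4 genes were called for miR-574-3p, 6 for miR-181d, 6 for miR-565, 8 for miR-629* and 2 for miR-766, against the shares of all genes given above. Their median log2 ratio lay between -0.08 and 0.04.

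E2F8, a repressive E2F factor, was the one gene of the 44 called in a difference between miRNAs. This was the difference of miR-574-3p, where 1.27% of all genes were called. The gene is described because it was called, so its readings below add no separate support. Its log2 ratios with miR-574-3p were 0.78, 0.83 and 0.88, above all 12 other arrays, which ranged from -0.23 to 0.44. The share of all probes separated in this way was not counted. The difference from the mean of the other 4 miRNAs was 0.59 (adjusted p = 0.0083, limma). The antagomir cells of miR-574-3p read 209, 209 and 198, against 185 to 394 on the other 12 arrays, so the readings overlap. The overexpressing cells read 359, 371 and 364, against 212 to 477. Compared with the antagomir cells of the other miRNAs, those of miR-574-3p were lower by 0.59 on the log2 scale (adjusted p = 0.0011, and 0.082 with no quantile normalization, limma), while the overexpressing cells differed by 0.01 (adjusted p = 0.995, limma). Within slide 2 the ratio was 0.62 higher than with miR-565, and within slide 3 it was 0.57 higher than with miR-629*.

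**Figure D5:**
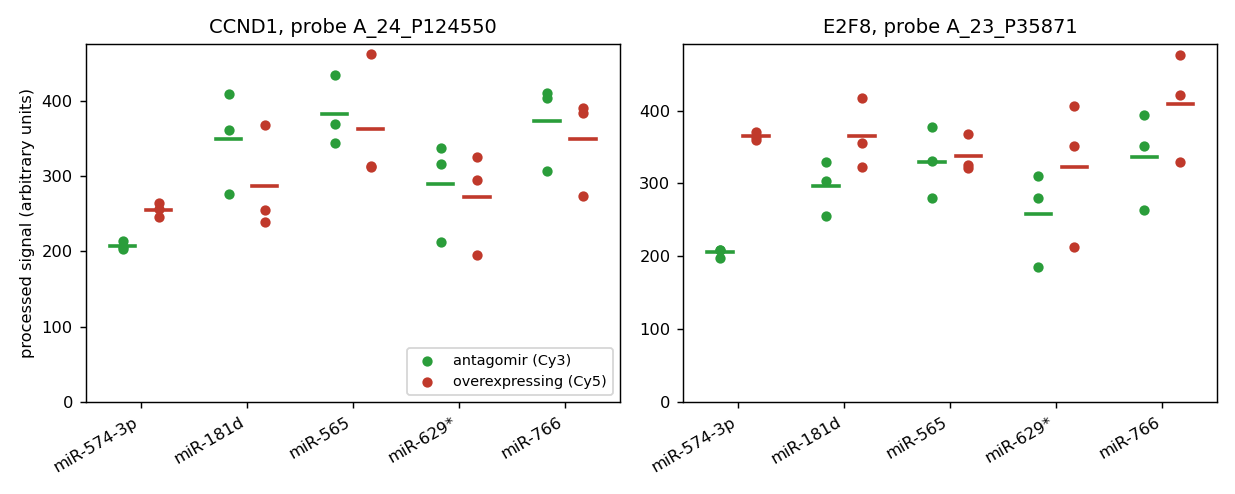
Processed signal (y axis, arbitrary units, from 0) of the CCND1 probe A_24_P124550 and of E2F8 on each array, by miRNA, with antagomir cells in green, overexpressing cells in red and a bar at the mean of 3. The antagomir cells of miR-574-3p read 203 to 214 for CCND1 and 198 to 209 for E2F8. Those of replicate 3 of miR-629* read 185 for E2F8.

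Of the E2F target genes, 2 were called in all 5 ratios, and they were chosen for mention after their values were seen. The share of all genes called in all 5 was not counted. It cannot exceed the 2.4% called for miR-766. TYMS, which makes thymidylate, was higher on all 15 arrays (0.10 to 0.42), and MCM7, a subunit of the replicative helicase, was lower on all 15 (-0.42 to -0.20). Neither was called in a difference between miRNAs. Averaged over the 5 miRNAs, 20 of the 44 genes were called, 9 higher and 11 lower in Cy5, against 41.6% of all genes. Of all 22988 genes, 5312 were called higher and 4246 lower in this mean. By role, 8 of the 14 E2F targets tested were called, 7 of them lower. Of the 10 E2F and DP factors 4 were called (E2F3, E2F5, E2F6 and E2F8), all higher, a count near the share of all genes. Called in other roles were 2 of 2 pocket proteins and 1 of 2 CIP/KIP inhibitors, all higher. Lower were 1 of 3 cyclins, 1 of 4 CDK activators and 1 of 5 genes of p27 and cyclin E turnover. Both INK4 genes outside 9p21 were called, CDKN2D higher (0.08, adjusted p = 0.018) and CDKN2C lower (-0.12, adjusted p = 0.0036, limma). As above, treatment and dye cannot be told apart in the 5 ratios or in this mean.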

How the data were processed

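Per the file headers, the authors deposited 1 output table of Feature Extraction 9.5.3.1 per array. Its intensity values, as deposited, are processed signals (background-corrected, dye-normalized by LOWESS) and background-subtracted signals. The authors' files also hold log10 ratios and, as a score, their error, used as alternatives. The Rosetta Resolver step of the study was not used here. Control spots (1639 per array) and outlier-flagged spots (96 to 208) were left out, no spot was saturated, and spots of a probe were averaged (264 probes have 10). Log2 ratios (Cy5 over Cy3) were fitted in R 4.3.3 with limma 3.58.1 (lmFit and eBayes, the variance modelled on intensity), 1 coefficient per miRNA over 15 arrays. A probe was tested if at least 3 arrays read it well above background, in Cy3 or Cy5. A gene with several probes was called by the brightest, and every probe of the members is described. From the wider list, genes called in a difference between miRNAs are named, and around CDKN2A those up to the nearest genes with signal. Each channel was also compared within its dye after quantile normalization. The number of arrays limits the precision. Of the probes, 68.1% to 75.5% were well above background in a channel.

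The members and lists were chosen with earlier results of these data known. The alternatives were normexp (offset 50) with loess, median centring, the series table, an error-weighted mean, 3 arrays only, a variance without the intensity trend, blocks for slide or for replicate number, other filters, the mean of a gene's probes, outliers kept, other detection rules and each array left out. The channel comparison without quantile normalization and with each array left out was added after seeing the data. In a simulation of log ratios with the spread of 31288 complete probes, the miR-574-3p ratio recovered 16% of 50 probes changed 1.25-fold, 56% at 1.5-fold and 88% at 3-fold, with 6 false calls of 121. The miR-574-3p difference recovered 8%, 48% and 84%, and the mean 0%, 16% and 50%. The changes were planted on the miR-574-3p arrays only, so the mean held them diluted over 5 miRNAs. Recovery of a change common to all 5 was not simulated. The simulated noise was normal, independent between arrays and of the same SD on every array for a given probe. It left out the wider spread of replicate 1 of miR-565 and the correlations between arrays. These rates of recovery and of false calls therefore need not hold for the real arrays. RefSeq names and miRNA sequences are GRCh38.p14, and probe positions are NCBI36. A marker and a sequence match are not reported here.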

Additional observations from a re-analysis of the deposited data

Results flagged for a closer look

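The following 2 results differed between miRNAs by a test of the difference itself. The CCND1 probe A_24_P124550 was 0.445 higher on the log2 scale in the miR-574-3p ratio than in the mean of the other 4 miRNAs, and all 3 arrays were positive, whereas 11 of the other 12 were negative. The other CCND1 probes were not called in this comparison (0.11 with an adjusted p of 0.72 and -0.12 with an adjusted p of 0.75, limma). E2F8 was 0.594 higher in the same comparison, on 3 of 3 arrays. For both, only the antagomir channel of miR-574-3p was called when each dye was compared across arrays. The CCND1 probe A_24_P193011 was also called lower in that channel (-0.28, adjusted p = 0.033, limma). The overexpressing channel of A_24_P124550 moved the same way without a call (-0.32, unadjusted p = 0.0065, adjusted p = 0.98, limma). For E2F8 the overexpressing channel differed by 0.01. Over all probes, 1.23% were called in this difference. Arrays of miR-574-3p lay on slides 2 and 3, and the part of the slide was not tested beyond the within-slide values given above.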

How the results depend on the processing

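The number of 9p21 probes well above background in all 30 readings was 2 under each of the 4 detection rules. The number detected in no reading was 4 by the main rule and with outlier spots kept. It was 2 by the positive and significant flag and 0 by the negative controls, a rule that a probe at background can pass in some readings. The brightest probes of CDKN1B and CCND1 kept their direction and stayed called in the mean of the 5 miRNAs under all 23 alternatives (0.24 to 0.30 and -0.32 to -0.26), as did CDKN2A, MTAP and CDK2. CCNE1 lost its call in 14 of 23. Members called in the ratios were 2 for miR-574-3p, then 2 for miR-181d, then 1 for miR-565. Those for miR-629* were 2 and those for miR-766 were 0, and this order is kept below. They became 5, 2, 0, 2 and 2 with 3 arrays only (24.8%, 9.3%, 0%, 19.2% and 5.12% of all genes), and 1 each for miR-574-3p, miR-181d and miR-629* with no intensity trend (3.46%, 3.35% and 7.51%). Averaging a gene's probes gave 0, 1, 0 and 1 for the first 4. The error-weighted mean gave 0 for miR-181d (8.91%) and 3 for miR-565 (22.7%), normexp with loess 2 for miR-565 (12.3%) and 1 for miR-629* (13.8%), median centring 2 for miR-565 (16.3%), 1 for miR-629* (12.6%) and 1 for miR-766 (4.05%), and the series values 1 for miR-766 (4.1%). With the slide block the ratios gave 4, 6 and 4 for the first 3 (35.1%, 47% and 33%) and the differences 2, 4 and 3 instead of 0. Genes of the wider list called were 4, 6, 6, 8 and 2. Beside the same shares of all genes, these became 18 (miR-574-3p), 0 (miR-565) and 14 (miR-629*) with 3 arrays only, 23, 31 and 21 for the first 3 with the slide block, and 3 for miR-629*, miR-565 and miR-181d and 1 for miR-766 with no intensity trend. With no trend 9.54% (miR-565) and 0.957% (miR-766) of all genes were called. The error-weighted mean gave 1 for miR-574-3p (8.55%) and for miR-181d and 0 for miR-766 (7.74%) and for miR-629* (17.9%), normexp 5 for miR-629*, and median centring 4 for miR-766.

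Leaving out 1 array gave 0 to 4 members for miR-574-3p, 0 to 5 for miR-181d, 1 to 4 for miR-565, 1 to 3 for miR-629*, 0 to 5 for miR-766, 0 in each difference and 5 to 7 in the mean. For the wider list it gave 2 to 16, 1 to 19, 5 to 14, 2 to 20 and 1 to 18. The slide block reversed 7 single values: CDK6 A_23_P168651 with miR-181d (0.42), CDK6 A_24_P166663 with miR-574-3p (-0.36; difference -0.45) and miR-629* (-0.45), RB1 A_23_P204850 with miR-574-3p (-0.21; difference -0.25) and the CDKN2A difference of miR-181d (0.59). The cause was not tested.

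Same-numbered arrays were not clearly paired: 13 of 30 pairs had a correlation over 0.1 (median 0.0567, range -0.395 to 0.51). Of the pairs with other numbers, 16 of 60 did (median -0.0461). Among the 15 arrays, 6 correlated best with their own number. With the replicate block, the members called were 2 for miR-565 instead of 1, and the CCND1 A_24_P124550 difference had an adjusted p of 0.052. E2F8 in the antagomir channel had an adjusted p between 0.00078 and 0.082 over its 16 alternatives, above 0.05 only with no quantile normalization.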
